A study of Danio rerio with 7 samples.

Results

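The SLC25 family of mitochondrial solute carriers was measured in single cardiomyocytes sorted from injured adult zebrafish ventricles. Members were taken by name: every gene row whose zebrafish symbol, in upper or lower case, begins with slc25. That gave 42 of the 16394 genes in the tables. Genes under other symbols, such as MTCH2 and UCP2, were not counted as members, so shares of the family are shares of these 42. The table of gene names lists 59 such genes, and those without a row, among them SLC25A12, SLC25A13 and SLC25A42, were not analysed here.

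Most SLC25 proteins sit in the inner mitochondrial membrane, which is otherwise closed to most polar metabolites, although a few act in other membranes, such as SLC25A46 (outer mitochondrial membrane) and SLC25A17 (peroxisome). Each carrier takes a small set of substrates, often swapping one for another: the phosphate carrier and the ADP/ATP carriers feed and unload ATP synthase, the oxoglutarate/malate carrier is part of the malate-aspartate shuttle, and the carnitine/acylcarnitine carrier brings fatty acids in for oxidation. Heart muscle depends on oxidative phosphorylation, and in mammals its mitochondria are rich in ADP/ATP and phosphate carriers. The roles given below are those known from mammals unless stated otherwise.

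All fish carried the reporter Tg(nppa:mCitrine), in which the promoter of the natriuretic peptide gene nppa drives a fluorescent protein, and all ventricles were taken 7 days after cryoinjury. Both genotypes, hmga1a+/+ (wild type) and hmga1a-/- (mutant), came from 12 hearts each, were sorted 1 cell to a well, and were read by CEL-seq2. Uninjured hearts and reporter-negative cells were not among the samples, so the data describe reporter-high cells of injured ventricles only. The series text has cells sorted on mCitrine and the labels' protocol on mCherry, a difference that could not be settled. There were 3 wild-type and 4 mutant plates of 384 wells, numbered in order of deposit. The series text speaks of 768 cells for either genotype, with 1 wild-type plate failing, whereas the plates hold 1152 wild-type and 1536 mutant wells. Why these numbers differ is not known here, and so neither is the number of wells that received a cell. Nothing ties a plate to given animals, and p-values therefore rest on how plates vary, which may be a technical matter. The flow-cell codes put wild-type plate 1 with mutant plates 1 and 2 on one sequencing run (run 1) and the other 4 plates on another (run 2).

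A well was kept when it held at least 1000 transcripts outside spike-ins and mitochondrially encoded genes, which left 1033 of 2688 wells and at least 85 in each plate. Kept wells summed to between 260496 and 753855 transcripts per plate, and 14097 of all their transcripts were from SLC25 genes. The targeted gene hmga1a stood at 1.102 ± 0.0853 transcripts per 10000 (SD over 3 wild-type plates) and 0.352 ± 0.187 (SD over 4 mutant plates), with no overlap. All 9 cardiomyocyte markers were found, with a summed level of 1385 to 1699 per 10000 in wild-type and 1035 to 1416 in mutant plates. Leukocyte markers (4 of 7 listed had a row) summed to at most 0.769, endothelial (3 of 5) to at most 0.361, fibroblast (5 of 6) to at most 0.406 and thrombocyte markers (2 of 2) to at most 0.0641. None of the 3 erythrocyte markers had a row. The wells included 64 in which MYL7, a cardiac myosin light chain, made up under 1% of transcripts. The same 384 well barcodes served every plate.

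Levels below are transcripts per 10000 transcripts of a plate, spike-ins left out, summed over its kept wells. CEL-seq2 tags the 3′ end once per molecule, so levels of different genes were compared without a length correction. Over the 7 plates the whole family stood at 40.3 ± 5.42 per 10000 (SD, n = 7). The 3 most abundant members, SLC25A3, SLC25A5 and SLC25A11, held 84.2% ± 4.41 of it (SD, n = 7). Their share was 79.32% to 79.85% in the plates of run 1 and 86.97% to 88.4% in those of run 2. The 11 members abundant enough to be tested held 95.03%. The other 31 shared the remainder, although 20 members in all were found in every plate.

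**Figure D1:**
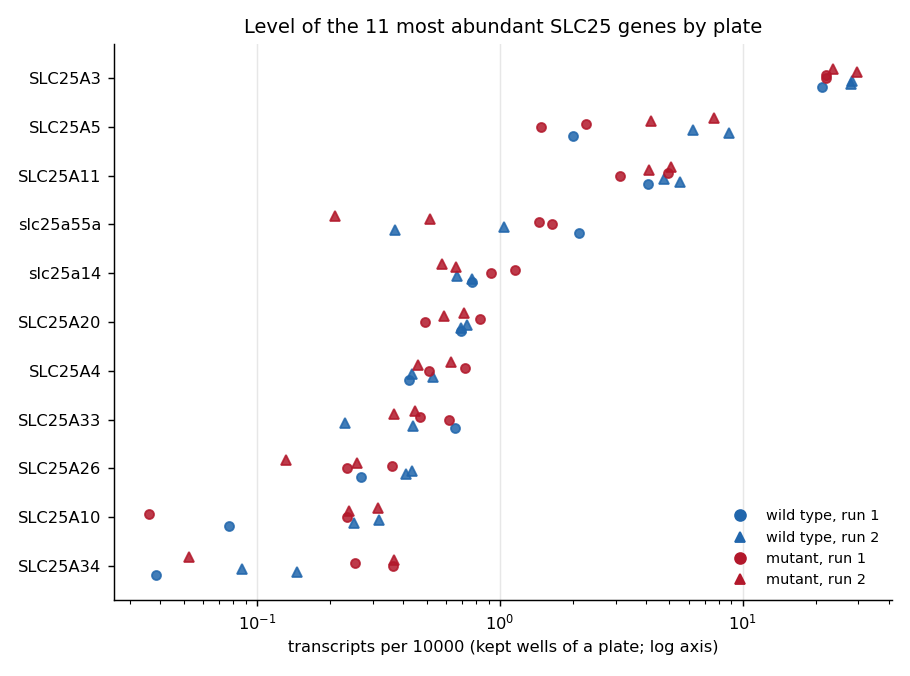
Level of the 11 most abundant SLC25 genes in each plate, in transcripts per 10000 on a log axis; blue is wild type and red mutant, circles are run 1 and triangles run 2. By mean over plates, SLC25A3 lies alone near 25 per 10000, SLC25A5 and SLC25A11 near 4.6, and the rest between about 1 and 0.2. Single plates spread more widely: SLC25A5 runs from 1.47 to 8.83, and the rest from 0.0361 (SLC25A10) to 2.12 (slc25a55a). SLC25A5 and slc25a55a are split by run rather than by genotype.

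The phosphate carrier SLC25A3 (ENSDARG00000025566), which imports inorganic phosphate for ATP synthesis, was the leading member. It stood at 21.2, 27.8 and 28.2 per 10000 in wild-type plates 1 to 3 and at 22.04, 22.1, 29.6 and 23.5 in mutant plates 1 to 4. The genotypes overlapped throughout, and the 3 lowest plates were those of run 1. With a mean of 24.9 ± 3.49 (SD, n = 7) it ranked 55 among all genes and made up 62.01% ± 4.18 of the family, between 56.5% and 68.6% in every plate. At least 1 SLC25A3 transcript was found in 90.7% of kept wells, and in 80.4% on average after each well was thinned to 1000 transcripts.

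Of the ADP/ATP carriers, which exchange matrix ATP for cytosolic ADP, SLC25A5 (ENSDARG00000092553) was the main form. Its level was 1.996, 8.83 and 6.26 in the wild-type plates and 1.47, 2.28, 4.19 and 7.62 in the mutant plates. All 3 plates of run 1 lay below all 4 of run 2, whichever the genotype. SLC25A4 (ENSDARG00000027355), the form that predominates in mammalian heart and skeletal muscle, stood at 0.422, 0.531 and 0.434 in wild-type and at 0.513, 0.723, 0.461 and 0.631 in mutant plates. Its plates overlapped between genotypes and between runs. It thus supplied only 5.67% to 25.8% of the sum of SLC25A4 and SLC25A5 in any plate. SLC25A6, a further ADP/ATP carrier, was found as 2 transcripts in 1 plate. The carriers are close in sequence and no source used here says how multi-mapped reads were counted, so the division between them is uncertain.

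SLC25A5 was found in many wells and SLC25A4 in few, but SLC25A4 also had the lower mean level (0.53 against 4.66). The shares of wells were not compared with those that level alone would give, so they do not by themselves show a different spread over cells. SLC25A5 was found in 62.9% of kept wells and SLC25A4 in 7.26%, or in 33.5% and 4.57% on average after thinning. In thinned wells the variance of the well counts divided by their mean was 1.09 for SLC25A5 (median of 7 plates), close to the value of 1 that counting error alone gives. It was 1.68 for SLC25A4, against 1.74 for the far more abundant SLC25A3. The ratio depends on level as well as on spread, so these 2 values are not directly comparable. SLC25A11, with a mean level of 4.50, is nearer to SLC25A5. Its ratio was 1.69 (1.37 to 2.97 over plates) against 0.850 to 1.41 over plates for SLC25A5, and it was found in 50.5% of kept wells.

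The carboxylate carriers were led by SLC25A11 (ENSDARG00000035741), the oxoglutarate/malate carrier. It stood at 4.07, 5.51 and 4.73 in wild-type plates and at 3.12, 4.95, 4.11 and 5.05 in mutant plates, a mean of 4.50 ± 0.797 (SD, n = 7). Neither genotype nor run separated its plates, and as a share of the family it was steadier than SLC25A5, at 11.2% ± 1.49 against 10.99% ± 5.99. The dicarboxylate carrier SLC25A10 followed far behind at 0.210 ± 0.111, SLC25A21, an oxodicarboxylate carrier, at 0.124, and the citrate carrier SLC25A1 at 0.0205 with 7 transcripts in all. The group as a whole held 12.1% ± 1.32 of the family.

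The carnitine/acylcarnitine carrier SLC25A20 (ENSDARG00000040401) stood at 0.691, 0.690 and 0.737 in wild-type and 0.491, 0.831, 0.590 and 0.710 in mutant plates. The wild-type plates lay close together and inside the range of the mutant plates. It made up 1.70% ± 0.327 of the family.

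Among nucleotide and cofactor carriers, SLC25A33 (ENSDARG00000039931), a pyrimidine nucleotide carrier, stood at 0.653, 0.438 and 0.231 in wild-type and 0.619, 0.469, 0.369 and 0.447 in mutant plates. Its 3 plates of run 1 lay above those of run 2, the highest of which reached 0.447. SLC25A26 (ENSDARG00000058208), which imports the methyl donor S-adenosylmethionine, stood at 0.269, 0.411 and 0.433 in wild-type and 0.235, 0.361, 0.258 and 0.131 in mutant plates. For SLC25A26, 3 of 4 mutant plates lay below every wild-type plate and the remaining one, mutant plate 2, lay among them. The 13 genes of this group held 3.79% ± 1.25 of the family.

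The most abundant of the uncoupling protein-like carriers was slc25a14 (ENSDARG00000026680), for which RefSeq gives the synonym UCP5. It stood at 0.768, 0.770 and 0.664 in wild-type and 0.918, 1.16, 0.664 and 0.578 in mutant plates. The highest values were those of both mutant plates of run 1 and the lowest that of mutant plate 4.

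The gene slc25a55a (ENSDARG00000020893) came next after SLC25A11 by level but was found in fewer wells than some less abundant members. RefSeq gives it the synonym slc25a22, the name of a glutamate carrier in mammals. A separate member, slc25a22a (8 transcripts), has that name in its symbol, so the synonym does not settle which gene corresponds to the mammalian carrier. Its level was 2.12, 0.372 and 1.04 in wild-type and 1.65, 1.45, 0.516 and 0.210 in mutant plates. The plates of run 1 were all above those of run 2. Only 75 kept wells (7.26%) held any of its 308.7 transcripts, whereas SLC25A11, with 1546 transcripts, was found in 522 wells.

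SLC25A34 (ENSDARG00000087401) was the least abundant member tested, with 64 transcripts in 49 wells. It stood at 0.0384, 0.146 and 0.0867 in wild-type and at 0.363, 0.253, 0.369 and 0.0526 in mutant plates. The first 3 mutant plates lay above every wild-type plate, and mutant plate 4 lay among them.

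Of the 31 members too scarce to test, 18 were found in at least 1% of kept wells, none with a mean above 0.178 per 10000. Among these were the amino acid carriers slc25a18 (glutamate), SLC25A38 (glycine), both genes named SLC25A44 (branched-chain amino acids) and SLC25A15 (ornithine). Nucleotide and cofactor carriers were SLC25A36, slc25a36b, SLC25A16, SLC25A25 (ENSDARG00000010572), slc25a23a and both genes named SLC25A32. The glutathione carriers slc25a39 and slc25a40, slc25a55b, SLC25A21, SLC25A46 and SLC25A47 completed them. For slc25a18 the mean was 0.0930 ± 0.0309 in wild-type and 0.242 ± 0.105 in mutant plates (SD over plates), from 54 transcripts. It is an example among members not tested, and others went the other way, such as SLC25A16 with 0.177 and 0.0884. The last 13 members had 1 to 15 transcripts each and 56 together, and 6 members were found in 1 plate only. Of the 13, the iron carriers SLC25A37 and SLC25A28 (mitoferrins) had 2 transcripts each. At this depth such counts do not tell low use from none.

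**Figure D2:**
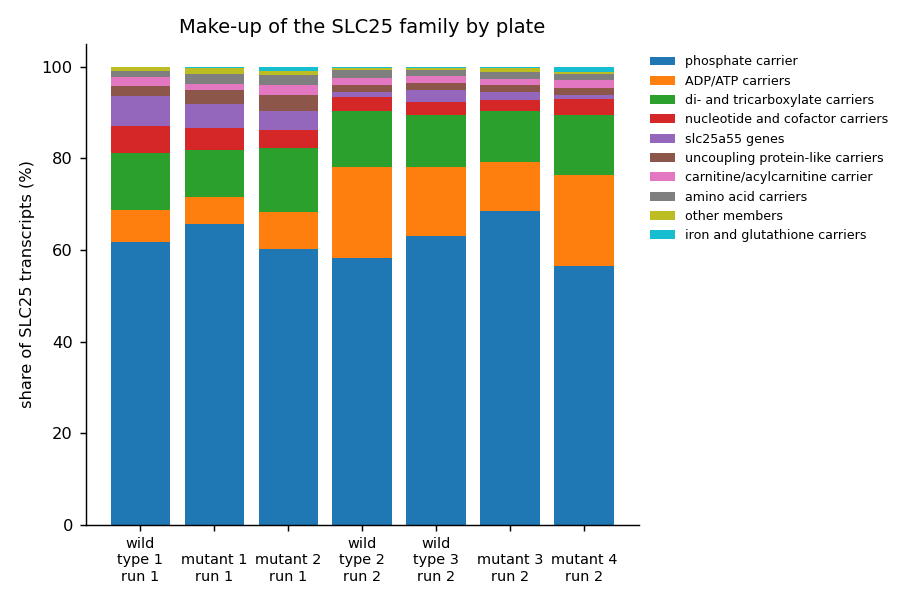
Share of SLC25 transcripts (%) held by each group of carriers in the 7 plates, ordered by run; each bar sums to 100. The phosphate carrier holds 56.5% to 68.6% in every plate, while the ADP/ATP carriers hold 5.92% to 8.15% in run 1 and 10.8% to 19.9% in run 2.

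The runs, and not the genotypes, separated the plates in the shares of the ADP/ATP carriers and the slc25a55 genes. The same held for the nucleotide and cofactor carriers, the uncoupling protein-like carriers and the summed share of SLC25A3, SLC25A5 and SLC25A11. The ADP/ATP carriers held a mean of 7.03% of the family in run 1 and 16.3% in run 2, and the slc25a55 genes 5.30% and 1.53%. The means were 4.90% and 2.97% for nucleotide and cofactor carriers, and 2.89% and 1.52% for uncoupling protein-like carriers. Shares are parts of the same family total, so a rise in some lowers the rest, and these splits are not independent. In a fit across all genes with run and genotype as terms, 2 of the 11 tested members passed between runs, against 4.65% of all 2798 genes tested (1.86% higher and 2.79% lower in run 2). SLC25A5 was higher in run 2 by 1.82 on the log2 scale (SE 0.25; edgeR quasi-likelihood test, Benjamini-Hochberg adjusted p = 0.00896). The gene slc25a55a was lower in run 2, with a difference of -1.79 (SE 0.39; edgeR adjusted p = 0.0303). The plates of the runs did not overlap for 5 of the 11 members, against 18.5% of all genes tested: SLC25A3, SLC25A5 and SLC25A10 were higher in run 2, slc25a55a and SLC25A33 in run 1. SLC25A3 differed by 0.37 (SE 0.13) and did not pass (edgeR adjusted p = 0.134). Neither did SLC25A10, at 1.20 (SE 0.64; edgeR adjusted p = 0.306), nor SLC25A33, at -0.60 (SE 0.37; edgeR adjusted p = 0.382). For these the runs were barely apart. The nearest plates of runs 1 and 2 had 0.235 and 0.240 for SLC25A10, and 0.469 and 0.447 for SLC25A33.

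The run difference of SLC25A5 was also present among wells alike in MYL7. In wells with 3% to 8% MYL7 its level was 2.92, 2.03 and 2.71 in the plates of run 1 and 8.24, 6.39, 4.45 and 8.29 in those of run 2, again without overlap. With each plate left out in turn, the difference of SLC25A5 lay between 1.61 and 2.02 and lost its call in 1 of 7 fits (without wild-type plate 1, 1.72 with edgeR adjusted p = 0.0537). That of slc25a55a lay between -2.13 and -1.52 and lost its call in 5 of 7 fits, without wild-type plates 1 and 2 and mutant plates 1, 3 and 4 (edgeR adjusted p = 0.135, 0.0675, 0.0687, 0.0695 and 0.0587). The difference of slc25a55a rested in part on 4 wells, described below, without which it was -0.93 (edgeR adjusted p = 0.292). Median mitochondrially encoded shares were 1.34%, 2.91% and 2.69% of transcripts in the plates of run 1 and 1.20% to 1.401% in run 2, and 5.05% to 11.4% of kept wells in run 1 had under 1% MYL7, against 3.43% to 6.34% in run 2. The part of these values in the run differences was not tested, and the sequencing run cannot be told apart from anything else that differed between these sets of plates.

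Carrier use also varied with how much MYL7 a well held, a grouping chosen after the values were seen and therefore described without a test. There were 64 kept wells with under 1% MYL7, 57 with 1% to 3% and 658 with 3% to 8%, and the rest had at least 8%. The whole family stood at 8.65 ± 5.58, 30.6 ± 9.14, 45.8 ± 2.97 and 41.9 ± 12.1 per 10000 in these 4 classes (SD over 7 plates). Wells with little MYL7 thus held few SLC25 transcripts, and they also had the highest mitochondrially encoded shares, with medians of 33.1%, 9.69%, 1.35% and 1.20%. Some plates had as few as 5 wells in the lowest class and 2 in the next.

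The phosphate carrier SLC25A3 stood at 3.08, 16.3, 29.1 and 25.3 across the 4 classes of MYL7 share, and SLC25A5 at 0.0932, 2.45, 5.00 and 6.38. SLC25A4 was not found in wells with under 3% MYL7, where a count of 0 allows up to 0.104 per 10000 in the lowest class and 0.119 in the next. It stood at 0.531 in the class above and at 1.38 ± 1.47 in the highest, where mutant plate 4 had 4.64 and the mean without that plate was 0.841. Between these classes it went up in 5 plates and down in 2. Between wells with 1% to 3% and those with 3% to 8% MYL7, the family, SLC25A3, SLC25A5 and SLC25A11 were lower in the former in 7 of 7 plates. The same held for SLC25A20, SLC25A4 and SLC25A33. These had only 4, 0 and 3 transcripts in the 1% to 3% class, too few for that count to carry weight. The gene slc25a14 was higher in that class in 3 plates and lower in 4. Without the 4 wells richest in slc25a55a, SLC25A3 was lower in 6 of 7 plates.

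The gene slc25a55a had its highest level in wells with 1% to 3% MYL7. Its mean level was 2.27, 5.39, 0.457 and 0.342 from the lowest to the highest MYL7 class, and it was higher at 1% to 3% than at 3% to 8% in 7 of 7 plates. In the 1% to 3% class it stood at 10.8, 6.99 and 6.49 in wild-type and 3.58, 3.36, 5.89 and 0.684 in mutant plates, against at most 1.49 in any plate at 3% to 8%. Without the 4 wells richest in it the means were 0.485, 3.50, 0.457 and 0.342, and the level was higher at 1% to 3% in 5 of 7 plates and lower in 2.

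**Figure D3:**
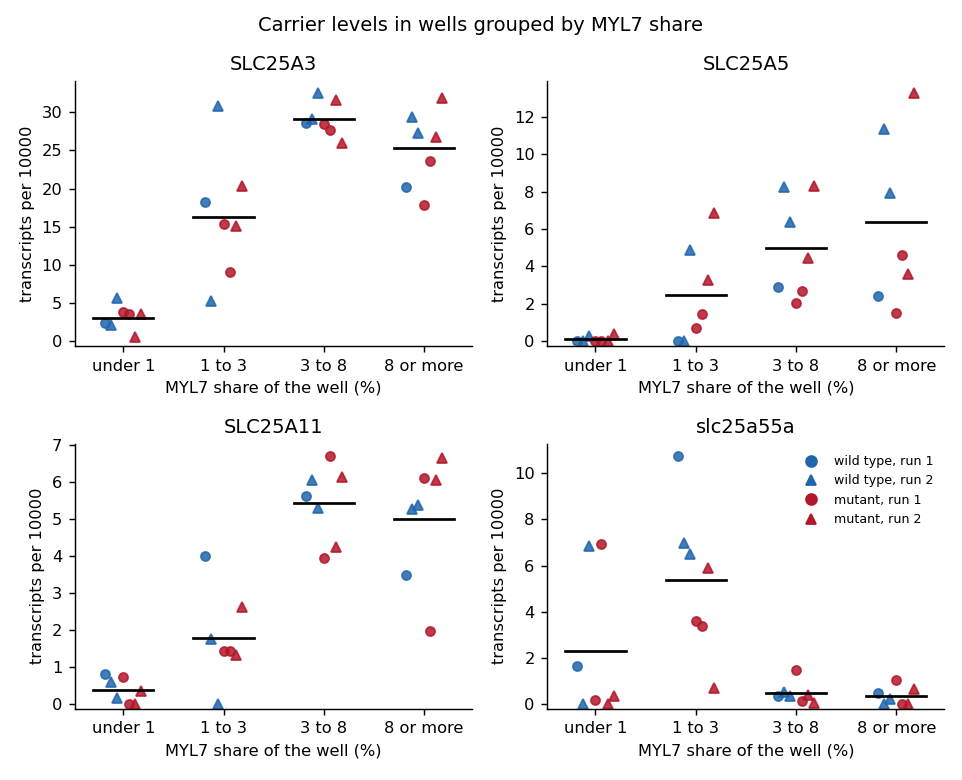
Levels of 4 carriers (transcripts per 10000) in kept wells grouped by the share of MYL7 in the well (%); each point is 1 plate, blue wild type and red mutant, circles run 1 and triangles run 2, and bars are means over plates. SLC25A3, SLC25A5 and SLC25A11 are low in wells under 1% MYL7, whereas slc25a55a is highest at 1% to 3%.

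Within the 75 wells that held it, slc25a55a was uneven. In 34 of them it was a single transcript, while 4 wells held 140.6 transcripts, 45.6% of the total. They had 46.3 (wild-type plate 3), 43.2 (wild-type plate 1), 27.1 (mutant plate 2) and 24.1 (mutant plate 1), and the next richest well had 12.0. The 75 wells were also deeper, with a median of 4167.5 transcripts outside mitochondrial genes against 2246.6 in the other kept wells, so a single transcript was more readily seen in them.

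Wells with slc25a55a held less MYL7 and, in most plates, more of some other genes than wells without it. MYL7 stood at a mean of 391 per 10000 in them (170.7 to 535.8 over plates) against 593 (417.5 to 832.0), lower in 7 of 7 plates, also after thinning. The natriuretic peptide genes nppa and nppb, used as signs of cardiomyocyte stress, were higher in 6 of 7 plates, with means of 6.91 against 3.49 and 20.1 against 1.48. The mean of nppb rested on mutant plate 2, with 108.5 per 10000, and was 5.41 without that plate. The keratin gene krt8 was higher in 7 of 7, at 16.5 against 0.897. Both genes of filamin C (FLNC) together were higher in 6 of 7, at 15.2 against 0.951, or 8.08 against 0.877 without mutant plate 2. The highest krt8 values were 37.14, 35.35 and 26.66 (wild-type plates 1 and 3, mutant plate 2). Those of FLNC were 57.65, 25.58 and 17.92 (mutant plates 2 and 1, wild-type plate 1). All these plates held a well among the 4 richest in slc25a55a, and values without those wells are not given here. In plates without such a well, krt8 was at most 5.53 and FLNC at most 2.76. After thinning, nppb was higher in 7 of 7 plates, nppa in 6, krt8 in 5 and FLNC in 3. For nppb the values were as close as 1.67 against 1.29 in wild-type plate 1 and 2.0 against 0.941 in mutant plate 3. With so few thinned wells (given below), these counts of plates carry little weight too. These genes were chosen after their values were seen. SLC25A5 was lower in wells with slc25a55a in 6 of 7 plates and SLC25A3 in 5, with means of 4.37 against 4.85 and 22.7 against 25.4. The mean of SLC25A5 in wells with slc25a55a was 2.80 without mutant plate 4, the plate in which it was higher. After thinning, 35 wells still held slc25a55a, as few as 2 in a plate. In them SLC25A5 stood at 0.571 against 4.99 in the others, lower in 7 of 7 plates. That mean came from wild-type plate 2 alone, with 4.0, and SLC25A5 was not found in these wells of any other plate. With so few wells, its absence from a single plate does not tell a low level from none, so the count of plates carries little weight. SLC25A3 stood at 18.1 in the thinned wells with slc25a55a against 25.5 in the others, lower in 5 plates.

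**Figure D4:**
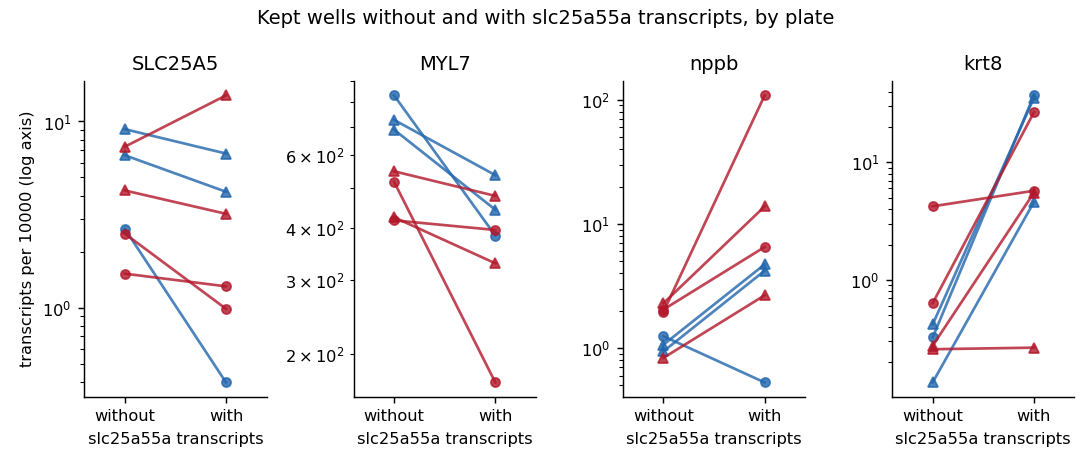
Levels of SLC25A5, MYL7, nppb and krt8 (transcripts per 10000, log axis) in kept wells without and with slc25a55a transcripts; each line joins the 2 values of 1 plate, blue wild type and red mutant, circles run 1 and triangles run 2. MYL7 is lower and krt8 higher with slc25a55a in all 7 plates, nppb is higher in 6.

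Genotype was compared over plates, asking whether loss of hmga1a changed which carriers reporter-high cells used. The family as a whole stood at 34.4, 47.7 and 44.7 per 10000 in wild-type plates and at 33.6, 36.8, 43.2 and 41.5 in mutant plates. The genotypes overlapped, while all plates of run 1 lay below all plates of run 2. The means were 42.3 ± 6.97 (SD, n = 3) and 38.8 ± 4.40 (SD, n = 4), a difference of -3.50 (exact two-sided permutation p = 0.4). With 3 against 4 plates this p cannot go below 0.0571, and the permutation shuffled plates across runs. The difference was less than the SD of the wild-type plates, but that SD takes in the gap between runs. Within run 1 the mutant mean was higher by 0.766, with the mutant plates on either side of the wild-type plate. Within run 2 the difference was -3.83, and both mutant plates (43.2 and 41.5) lay below both wild-type plates (47.7 and 44.7). In wells with at least 1% MYL7 the means were 44.8 ± 6.95 and 42.1 ± 3.09 (exact permutation p = 0.514, two-sided). Summed cardiomyocyte markers were lower in 3 of 4 mutant plates than in every wild-type plate, and mutant plates 1 and 2 had 11.4% and 9.41% of kept wells under 1% MYL7 against 4.46% to 6.06% in wild-type plates. The part of these values in the family level was not tested beyond the comparison in wells with MYL7.

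Over all 7 plates, the shares within the family did not separate the genotypes either. ADP/ATP carriers held 13.9% ± 6.39 of the family in wild-type and 11.2% ± 6.13 in mutant plates, a difference of -2.72 percentage points (exact two-sided permutation p = 0.629). Within run 1 the shares differed by 0.00486 percentage points and within run 2 by -2.01. SLC25A4 made up 9.87% ± 6.59 of the sum of SLC25A4 and SLC25A5 in wild-type and 16.9% ± 9.41 in mutant plates (exact two-sided permutation p = 0.286). It was higher in mutants by 7.50 percentage points within run 1 and by 2.71 within run 2. In run 1 this share was 17.5% in the wild-type plate and 25.8% and 24.1% in the mutant plates. In run 2 it was 5.67% and 6.48% in wild-type and 9.92% and 7.64% in mutant plates. Each mutant plate thus lay above the wild-type plates of its own run. This share was not among the planned comparisons, and how often other pairs of genes separate in this way was not counted. It also rests on few transcripts, since SLC25A4 had 174.1 in 75 wells over all plates. The permutation shuffled plates across runs, and the difference within runs was not tested.

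None of the 11 tested members passed between genotypes (edgeR quasi-likelihood test with run as covariate, Benjamini-Hochberg adjusted over 2798 genes; adjusted p between 0.473 and 0.961), where 0.500% of all genes did. At an unadjusted p under 0.05 the count was also 0 of 11, against 12.8% of all genes, and DESeq2 called 0, against 1.68%. DESeq2 gave no adjusted p for SLC25A34, SLC25A26 and SLC25A10, so these could not be called by it. In wells with at least 1% MYL7, 0 of the 10 members tested passed, against 1.85% of all genes. The fold changes were positive for 6 members and negative for 5, with a median of 0.03 on the log2 scale, beside 0.025 over all genes.

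For the leading carriers the intervals of the genotype difference were narrow. SLC25A3 differed by 0.03 on the log2 scale (SE 0.13; 95% interval -0.26 to 0.33), that is between 0.834-fold and 1.25-fold. SLC25A11 differed by -0.06 (SE 0.18; -0.46 to 0.33) and SLC25A5 by -0.23 (SE 0.24; -0.76 to 0.29). Since these intervals include 0, no direction was drawn. As measures of how plates vary they leave out a doubling or a halving. Nothing ties plates to animals, however, so differences between animals may not be covered by them. Intervals of the scarcer members were wider.

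The members with the largest fold changes were SLC25A34, slc25a55a, SLC25A26 and SLC25A4, none past the threshold. SLC25A34 stood at 1.44 (SE 0.75; -0.22 to 3.09; edgeR adjusted p = 0.473), with 2.69 within run 1 and 0.33 within run 2. The fold change of slc25a55a was -0.63 (SE 0.39; -1.51 to 0.24; edgeR adjusted p = 0.539), and 0.27 without the 4 wells richest in it. SLC25A26 stood at -0.61 (SE 0.46; -1.63 to 0.41; edgeR adjusted p = 0.633), with 0.11 within run 1 and -1.15 within run 2. SLC25A4 stood at 0.34 (SE 0.31; -0.36 to 1.03; edgeR adjusted p = 0.696). The other members, SLC25A33, SLC25A10, slc25a14 and SLC25A20, stood at 0.13, 0.24, 0.08 and -0.07.

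**Figure D5:**
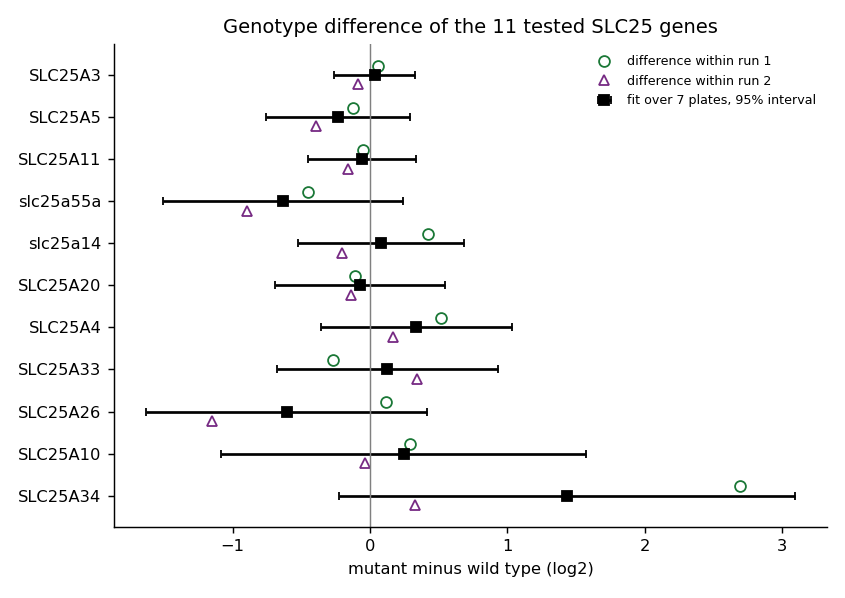
Difference between genotypes (mutant minus wild type, log2) of the 11 tested SLC25 genes; squares are the fit over 7 plates with 95% intervals, circles and triangles the differences within run 1 and run 2. Every interval includes 0, and it is narrowest for SLC25A3 and widest for SLC25A34.

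Other genes of mitochondrial transport were read from the same fit. Of 31 symbols searched, 26 were found, on 32 genes, and 17 of these were tested: 10 had positive and 7 negative fold changes with a median of 0.025, and none passed (0 also at an unadjusted p under 0.05). By level, the outer-membrane channel VDAC2 (26.5 ± 2.70 per 10000; SD, n = 7) stood beside SLC25A3, and VDAC3 (12.3 ± 1.00) above every other SLC25 member. MTCH2, an outer-membrane protein with an SLC25-like fold, stood at 4.04 ± 0.817, and VDAC1 at 1.99 ± 0.402. The mitochondrial pyruvate carrier, which is not an SLC25 protein, was represented by MPC2 (ENSDARG00000024478) at 3.24 ± 0.266 and MPC1 at 2.96 ± 1.14. A second gene named MPC2 (ENSDARG00000037679) stood at 1.28 ± 0.221. Like SLC25A5, MPC1 was higher in run 2, by 1.07 on the log2 scale (edgeR adjusted p = 0.0303). The genotype fold changes of the 6 most abundant of these genes lay between -0.23 (MPC1) and 0.14 (VDAC3 and MTCH2).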

How the data were processed

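Per the labels' protocols, each well held 1 sorted cell and libraries were made by CEL-seq2, in which a random barcode (UMI) marks each molecule. The submitters' processing notes list BWA 0.6.2. No source used here gives the genome build, the annotation or the treatment of multi-mapped reads, so no coordinates are printed. The authors deposited estimated counts, 1 value for each gene in each well: 100% of 857630 values above 0 matched, within 0.0051, a whole UMI number (at most 2927) corrected for a space of 4096 barcodes (6 bases, where the protocol names a shorter UMI). Tables held gene identifiers, and symbols came from a table of names covering 13087 of 16394 genes; the 13 mitochondrially encoded genes were recognised by symbol. Totals over all wells were 310267 to 808070 transcripts per plate, and limits for a count of 0 cover counting error only.

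Deposited estimates of kept wells were summed per plate, rounded and tested with edgeR 4.0.16 in R 4.3.3 (TMM, filterByExpr by genotype, quasi-likelihood F test, sequencing run as covariate, Benjamini-Hochberg adjusted p under 0.05), with DESeq2 1.42.0 as an alternative. Single values per plate were compared by exact permutation tests, which shuffled plates without regard to run. Within a run, genotypes were compared by their mean log2(CPM + 1). Thinning drew 1000 transcripts per well, and all 1033 kept wells were deep enough. No doublet caller was run on wells sorted 1 cell each.

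The members, gene lists and tests were chosen with earlier results of these data known. Members that passed the low-count filter are named with their level; values per plate are given for the 8 most abundant and the 4 with the largest fold change; untested members are named if found in 1% of kept wells, others only as examples chosen after their values were seen. Of other transport genes, those past the threshold, the 6 most abundant and the second gene named MPC2 are named. Alternatives were another tool, scaling, filter, minimum of transcripts (500 or 2000 per well), well set, undone UMI correction, no mitochondrial genes, single runs and each plate left out.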

Additional observations from a re-analysis of the deposited data

Results flagged for a closer look

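The wells left out for holding too few transcripts also held SLC25 transcripts. In the 1655 wells under the minimum, which hold 446537 transcripts in all, the family stood at 31.02 per 10000. Plates lay between 21.01 and 35.3, and SLC25A3 alone stood at 20.1. In kept wells the mean of the family over plates was 40.3, with plates between 33.6 and 47.7. No blank wells are labelled, so a background level was not measured. A single plate far from the others of its genotype was looked for in 13 sets of mutant plates and none was found; chance alone gives about 1 in 20.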

How the results depend on the processing

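No SLC25 member passed between genotypes under any of the 20 alternatives, in which the smallest adjusted p was 0.286. Among the member fold changes recomputed, 29, of 8 members, changed sign. SLC25A5 and SLC25A4 kept theirs in all 20, and SLC25A34 in the 13 that gave it a fold change. SLC25A3 (0.032) turned to -0.071 with no filter, -0.038 with no run covariate, -0.056 in run 2 alone, -0.001 on observed UMI numbers, -0.003 without mitochondrial genes and -0.022 without the 4 wells richest in slc25a55a, and lay between -0.058 and 0.113 with each plate left out. SLC25A11 turned to 0.012 in run 1 alone and 0.067 in wells with at least 2000 transcripts (plates left out -0.173 to 0.016), and slc25a55a to 0.271 without the 4 wells. The gene slc25a14 turned to -0.024 with no filter, -0.18 in run 2 alone and -0.028 in wells with at least 2000 (-0.168 to 0.193), SLC25A20 to 0.057 in wells with at least 500 (-0.185 to 0.02). SLC25A33 turned to -0.183 in run 1 alone and -0.003 without the 4 wells (-0.138 to 0.313), SLC25A26 to 0.168 in run 1 alone, and SLC25A10 to -0.054 with no run covariate and -0.031 in run 2 alone (-0.118 to 0.443). The cause was not tested. The median of all genes was -0.143 with no filter and 0.107 in run 1 alone, against 0.025.

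The number of all genes called was 14; it was 47 with DESeq2, 83 with no filter, 9 with no run covariate, 8 in run 1 alone, 29 in run 2 alone, 46 in wells with MYL7, 37 in thinned wells, 42 without the 4 wells, and 7 to 20 with each plate left out. The family difference was 0.766 in run 1 alone and -7.42 to -0.776 with each plate left out, and the ADP/ATP share difference was 0.00486 and -6.15 to 0.174, the last without wild-type plate 2. Between runs, 2 members passed, 1 in thinned wells, 1 without the 4 wells and 0 to 2 with each plate left out (0 without wild-type plate 1). The alternatives without the 4 wells, and those of the run comparison, were chosen after seeing the data. No paired analysis was possible because the labels give no replicate numbers and the plates were numbered in order of deposit. Depth limits the 31 untested members, of which 13 had at most 15 transcripts over 1033 wells.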
